A study of Neurospora crassa with 8 samples.

Results

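Of the 9730 genes counted in Neurospora crassa cultures, 152 had a high transcript level in the ve-1 mutant grown with iron and lay at least 4-fold lower in each of the other 3 groups of cultures. They were found by dividing the read counts of all 8 libraries by median-of-ratios size factors, giving normalised counts, and adding 1 to the mean of each group. A gene was taken when its mean in ve-1 cultures with iron reached 100 and was at least 4-fold over each other group mean. The genes were thus chosen by the group means of these same libraries, and their differences between ve-1 cultures with iron and the other groups are given below as values without a test. Neurospora crassa is a filamentous fungus, and the cultures were mycelia shaken for 48 h at 32 °C with 1.5% sucrose. The study set ve-1 mutants against wild type in standard Vogel's minimal medium and in the same medium made without iron. Glassware treated with 1 mM EDTA and 5% HCl is recorded alike for all 8 samples. Each of the 4 groups held 2 cultures, named here ve-1 standard, ve-1 iron-free, wild-type iron-free and wild-type standard. The labels name the mutant by genotype alone and give neither its allele nor how it was made, and strain codes in the deposited files show that replicates 1 and 2 of a genotype were different strains.

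VE-1 is the Neurospora member of the velvet family, the homolog of VeA of Aspergillus, and works in a nuclear complex with VE-2 and the methyltransferase-like protein LAE-1. In Aspergillus, VeA and LaeA are known for control of secondary metabolism, whose genes often lie side by side on a chromosome, and for the balance between asexual and sexual development. In fungi, GATA factors of the SRE kind repress siderophore synthesis when iron is at hand.

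The labels could be checked on the transcripts of ve-1 and of sre, the Neurospora gene of that GATA factor. The ve-1 gene had 20 and 28 reads in ve-1 standard libraries, against 15 and 80 in ve-1 iron-free, 2977 and 1931 in wild-type iron-free and 1077 and 1533 in wild-type standard ones. The sre gene had 1254 and 1582 normalised counts in ve-1 standard libraries, against 60.8 and 64.1 in ve-1 iron-free, 68.1 and 109 in wild-type iron-free and 1411 and 959 in wild-type standard ones. Few ve-1 reads were thus found in the mutant libraries, and sre was lower in the 4 iron-free libraries than in the 4 standard ones. The libraries held 6654585 to 10192729 reads counted on genes.

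Transcripts of the 152 genes made up 6.07% and 4.52% of counted reads in ve-1 standard libraries, against 0.782% and 0.356% in ve-1 iron-free, 0.222% and 0.297% in wild-type iron-free and 0.810% and 0.349% in wild-type standard ones. The widest 95% Wilson interval of these shares spanned 0.0346 percentage points, which covers counting error and not the spread between cultures. The median of the group means over the genes was 1075 normalised counts in ve-1 standard libraries, against 60.6 in ve-1 iron-free, 26.3 in wild-type iron-free and 66.9 in wild-type standard ones. The ratio of the ve-1 standard mean to the highest other group mean, each plus 1, had a median of 7.28 and ranged from 4.05 at NCU01734 to 2225 at NCU07819. It was at least 100 for 18 genes, at least 10 for 57 and between 4 and 10 for 95. In bulk mycelium, more cells of a type and more RNA per cell cannot be told apart.

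The rule used group means, so single libraries could still overlap. For 151 of the 152 genes both ve-1 standard libraries lay above the other 6, a pattern that the rule favours and that 16.1% of the 9475 genes with a read showed. The exception was pre-2, described below with the other genes that differed between the ve-1 standard cultures. The group next below ve-1 standard was wild-type standard for 86 genes, ve-1 iron-free for 44 and wild-type iron-free for 22. For 17 genes each of the other 6 libraries was at or under 10 normalised counts, and 15 of these lay in the stretches of neighbouring genes described next.

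**Figure D1:**
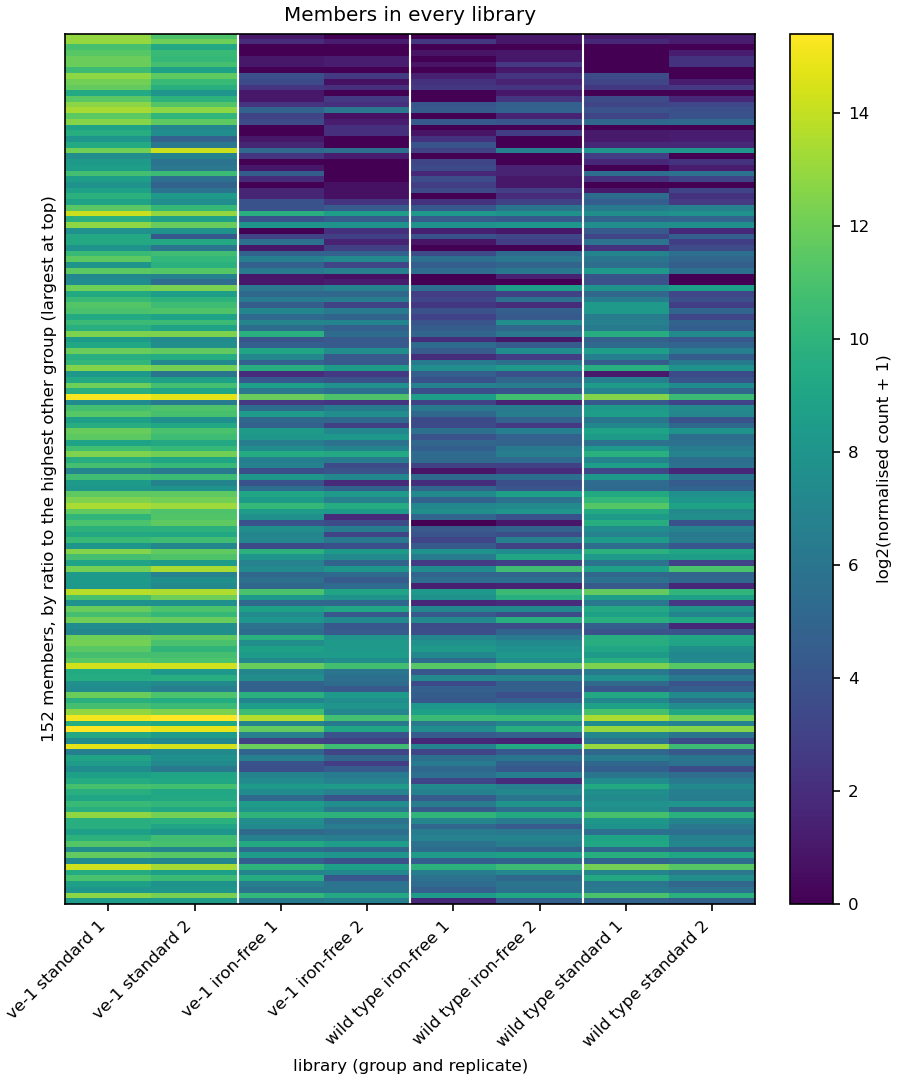
Normalised counts of the 152 genes (rows, ordered by the ratio that chose them) in the 8 libraries (columns, by group), coloured by log2 of the normalised count plus 1. Both ve-1 standard columns are brighter than the other 6 in nearly all rows, and for the genes with the largest ratios, at the top, the other 6 are near 0.

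In the gene order of the NC12 assembly, 43 of the 152 genes (28.3%) stood directly beside another of them, in 14 stretches. With 1 other gene allowed between them there were 18 stretches holding 53 genes (34.9%), 6 of them with at least 3. The same rule applied to the other groups took 23 genes for ve-1 iron-free, 62 for wild-type iron-free and 63 for wild-type standard, of which 5 (21.7%), 12 (19.4%) and 9 (14.3%) stood beside another of their own set. These shares are a description without a test, and the number of genes taken differs between the groups. Position was not used by the rule. The genes in the stretches carry no symbol in the reference table unless one is given below, and no role is stated for them.

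Near silence outside ve-1 standard cultures marked the stretch NCU07819, NCU07820 and NCU07821. NCU07819 had 6551 and 1728 reads in ve-1 standard libraries, against 1 and 0 in ve-1 iron-free, 0 and 1 in wild-type iron-free and 1 and 1 in wild-type standard ones. NCU07820 had 1665 and 486 reads in ve-1 standard libraries, against 0 and 0 in ve-1 iron-free, 0 and 0 in wild-type iron-free and 0 and 0 in wild-type standard ones. NCU07821 had 3319 and 936 reads in ve-1 standard libraries, against 1 and 2 in ve-1 iron-free, 0 and 1 in wild-type iron-free and 0 and 3 in wild-type standard ones. At a floor of 3 reads over the 2 libraries of a group, NCU07820 was at least 1095-fold higher in ve-1 standard than in ve-1 iron-free cultures, at least 1001-fold higher than in wild-type iron-free ones and at least 705-fold higher than in wild-type standard ones. The genes on either side, NCU07818 and NCU07822, had ratios of 0.351 and 1.06, so neither reached the 4-fold threshold. In all 3 genes ve-1 standard replicate 1 was above replicate 2, by 3.05- to 3.38-fold.

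A stretch of 6 genes, NCU05883 to NCU05888, had no other gene inside it. NCU05883 had 2375 and 1064 reads in ve-1 standard libraries, against 0 and 0 in ve-1 iron-free, 1 and 1 in wild-type iron-free and 0 and 1 in wild-type standard ones. NCU05884 had 592 and 201 reads in ve-1 standard libraries, against 1 and 0 in ve-1 iron-free, 0 and 1 in wild-type iron-free and 0 and 0 in wild-type standard ones. NCU05888 had 3371 and 1414 reads in ve-1 standard libraries, against 1 and 2 in ve-1 iron-free, 1 and 5 in wild-type iron-free and 0 and 3 in wild-type standard ones. These 3 genes were thus nearly silent in all 6 other libraries, where none exceeded 5 reads. NCU05885 had 2819 and 1233 normalised counts in ve-1 standard libraries, against 13.7 and 20.1 in ve-1 iron-free, 18.2 and 60.5 in wild-type iron-free and 82.7 and 102 in wild-type standard ones. NCU05886 had 2937 and 1136 normalised counts in ve-1 standard libraries, against 7.84 and 0.647 in ve-1 iron-free, 0 and 1.95 in wild-type iron-free and 8.27 and 13.6 in wild-type standard ones. NCU05887 had 6728 and 2519.9 normalised counts in ve-1 standard libraries, against 3.92 and 3.24 in ve-1 iron-free, 16.7 and 25.4 in wild-type iron-free and 8.27 and 8.68 in wild-type standard ones. NCU05885 kept a low level in the other libraries, highest in wild-type standard, while NCU05887 was higher in both wild-type iron-free libraries than in the other 4 outside ve-1 standard. NCU05883 and NCU05885 overlap other annotated genes, so their reads could in part belong to those. The flanking genes NCU05882 and NCU11305 had ratios of 0.704 and 0.785.

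The longest stretch ran from NCU05761 to NCU05767 and held 10 of the genes, with NCU17269 inside it at a ratio of 19.6 but below the level threshold. Unlike most of the others, these genes were several-fold apart between the ve-1 standard cultures. NCU05761 had 591 and 54 reads in ve-1 standard libraries, against 2 and 0 in ve-1 iron-free, 20 and 0 in wild-type iron-free and 2 and 2 in wild-type standard ones. NCU05762 had 389 and 44 reads in ve-1 standard libraries, against 2 and 1 in ve-1 iron-free, 14 and 6 in wild-type iron-free and 1 and 6 in wild-type standard ones. NCU05763 had 340 and 52 reads in ve-1 standard libraries, against 1 and 0 in ve-1 iron-free, 13 and 2 in wild-type iron-free and 0 and 1 in wild-type standard ones. Wild-type iron-free replicate 1 was the highest of the other 6 libraries for each of these 3. NCU17267 had 270 and 44 reads in ve-1 standard libraries, against 0 and 0 in ve-1 iron-free, 11 and 0 in wild-type iron-free and 2 and 3 in wild-type standard ones. NCU05764 had 325 and 37 reads in ve-1 standard libraries, against 3 and 0 in ve-1 iron-free, 15 and 1 in wild-type iron-free and 3 and 6 in wild-type standard ones. NCU17268 had 238 and 21 reads in ve-1 standard libraries, against 1 and 0 in ve-1 iron-free, 5 and 0 in wild-type iron-free and 1 and 1 in wild-type standard ones. The same order held here, with ve-1 standard replicate 1 first, replicate 2 next and wild-type iron-free replicate 1 after them. NCU17270 had 198 and 22 reads in ve-1 standard libraries, against 0 and 1 in ve-1 iron-free, 8 and 1 in wild-type iron-free and 0 and 0 in wild-type standard ones. NCU17271 had 253 and 48 reads in ve-1 standard libraries, against 3 and 8 in ve-1 iron-free, 32 and 13 in wild-type iron-free and 1 and 8 in wild-type standard ones. NCU05766 had 996 and 128 reads in ve-1 standard libraries, against 28 and 29 in ve-1 iron-free, 112 and 52 in wild-type iron-free and 19 and 60 in wild-type standard ones. NCU05766 was read in every library, and per size factor it held 167 normalised counts in ve-1 standard replicate 2, against 84.8 in wild-type iron-free replicate 1. NCU05767 had 321 and 120 reads in ve-1 standard libraries, against 14 and 9 in ve-1 iron-free, 109 and 27 in wild-type iron-free and 30 and 43 in wild-type standard ones. Over the 10 genes the ratio of replicate 1 to replicate 2 in ve-1 standard cultures, in normalised counts, had a median of 7.38 and ranged from 2.38 to 10.1. NCU05763 and NCU17267 overlap each other, so they do not count as independent measurements. Beyond NCU05767 lies a locus that met the thresholds and was left out by the rule, so no flanking gene is given on that side.

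**Figure D2:**
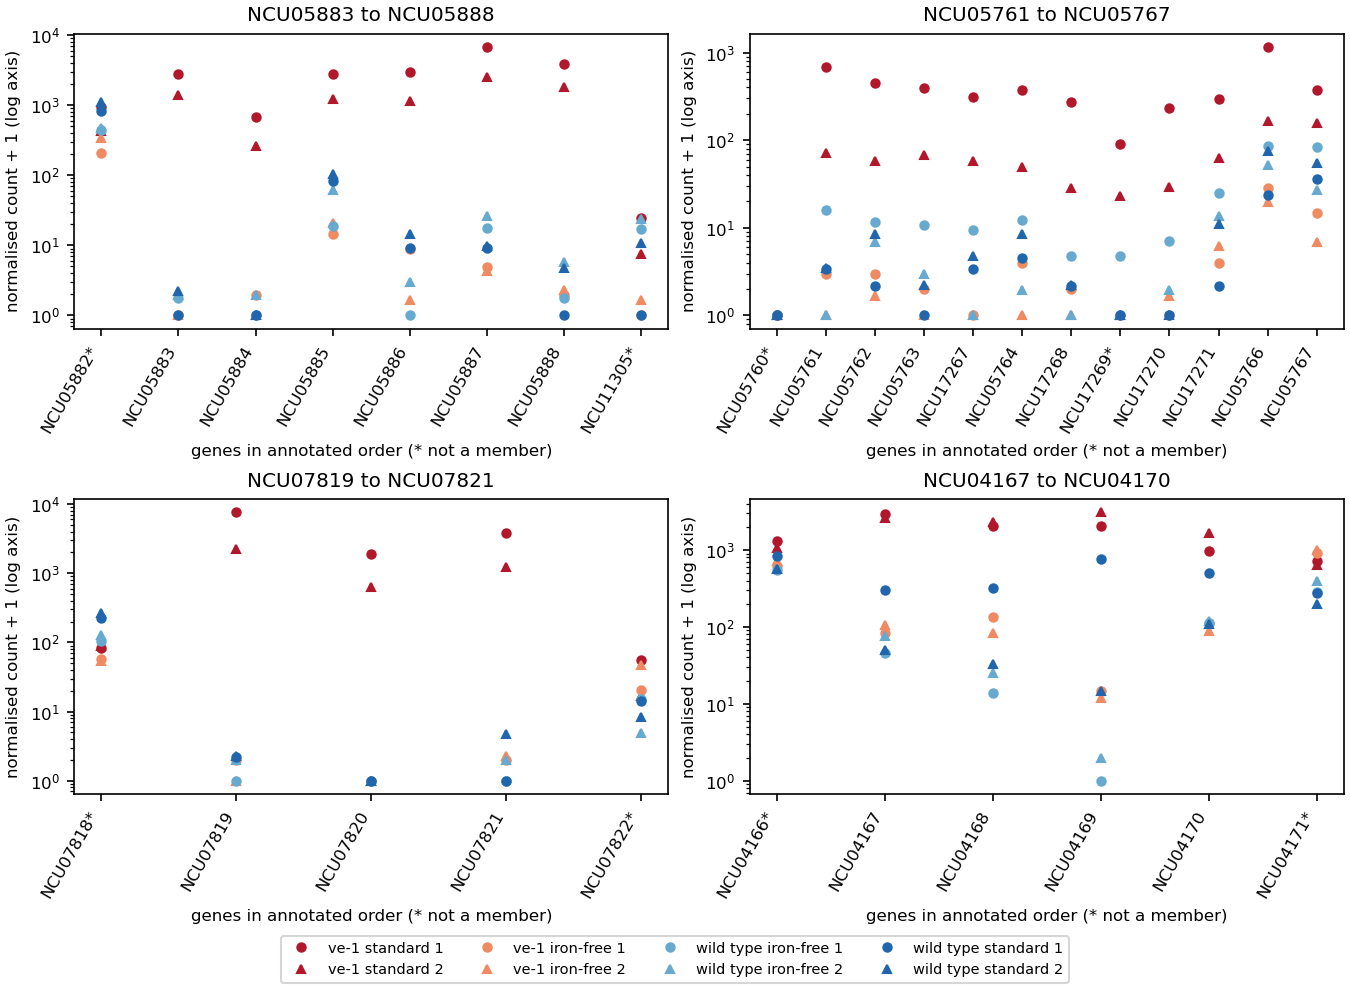
Normalised counts plus 1 (vertical, log axis) of the genes in 4 of the stretches in annotated order (horizontal), with the flanking genes and genes between marked by an asterisk, and 1 point per library, coloured by group and shaped by replicate. The 2 ve-1 standard points stand above the other 6 for each gene of the stretches, and in the stretch from NCU05761 replicate 1 lies well above replicate 2.

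The remaining stretches of at least 3 genes kept more reads in the other groups. In the stretch NCU04167 to NCU04170 the next highest library was wild-type standard replicate 1 for all 4 genes, of which NCU04167 overlaps another annotated gene. NCU04167 had 2946 and 2634 normalised counts in ve-1 standard libraries, against 81.4 and 104 in ve-1 iron-free, 45.4 and 74.2 in wild-type iron-free and 304 and 49.6 in wild-type standard ones. NCU04168 had 2027 and 2317 normalised counts in ve-1 standard libraries, against 132 and 81.6 in ve-1 iron-free, 12.9 and 24.4 in wild-type iron-free and 319 and 32.2 in wild-type standard ones. NCU04169 had 2074 and 3077 normalised counts in ve-1 standard libraries, against 13.7 and 11.0 in ve-1 iron-free, 0 and 0.976 in wild-type iron-free and 769.6 and 13.6 in wild-type standard ones. The wild-type standard cultures were far apart for these genes, with NCU04169 at 770 in replicate 1 and 13.6 in replicate 2. NCU04170 had 955 and 1663 normalised counts in ve-1 standard libraries, against 109.8 and 86.7 in ve-1 iron-free, 111 and 119 in wild-type iron-free and 500.0 and 109 in wild-type standard ones. In NCU07917 to NCU07919 the level was again highest in wild-type standard replicate 1 among the other libraries. NCU07917 had 634 and 442 normalised counts in ve-1 standard libraries, against 17.7 and 12.9 in ve-1 iron-free, 13.6 and 33.2 in wild-type iron-free and 100.5 and 14.9 in wild-type standard ones. NCU07918 had 1885 and 1296 normalised counts in ve-1 standard libraries, against 109.8 and 11.0 in ve-1 iron-free, 6.81 and 6.83 in wild-type iron-free and 382 and 52.1 in wild-type standard ones. NCU07919 had 171 and 80.7 normalised counts in ve-1 standard libraries, against 4.90 and 3.88 in ve-1 iron-free, 6.81 and 1.95 in wild-type iron-free and 18.9 and 7.44 in wild-type standard ones. The flanking genes NCU07916 and NCU07920 had ratios of 4.91 and 5.75 but means below 100. In the stretch NCU16941, NCU09679 and NCU09678 the 3 genes differed in how low the other libraries were. NCU16941 had 173 and 93.7 normalised counts in ve-1 standard libraries, against 26.5 and 18.8 in ve-1 iron-free, 25.7 and 25.4 in wild-type iron-free and 16.5 and 23.6 in wild-type standard ones. NCU09679 had 342 and 211 normalised counts in ve-1 standard libraries, against 50.0 and 20.7 in ve-1 iron-free, 43.9 and 48.8 in wild-type iron-free and 53.2 and 36.0 in wild-type standard ones. NCU09678 had 3356 and 856 normalised counts in ve-1 standard libraries, against 3.92 and 3.24 in ve-1 iron-free, 4.54 and 3.90 in wild-type iron-free and 4.73 and 4.96 in wild-type standard ones. NCU09678 stayed under 5 normalised counts in each of the 6, whereas NCU16941 and NCU09679 kept between 16.5 and 53.2.

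Several stretches of 2 genes paired a nearly silent gene with one that was read throughout. NCU09039 had 1319 and 348 reads in ve-1 standard libraries, against 0 and 0 in ve-1 iron-free, 0 and 1 in wild-type iron-free and 0 and 0 in wild-type standard ones. mig-4 (NCU09040) had 27652 and 20793 normalised counts in ve-1 standard libraries, against 3786 and 1556 in ve-1 iron-free, 119 and 654 in wild-type iron-free and 8406 and 1530.4 in wild-type standard ones. NCU09039 was at least 847-fold higher in ve-1 standard than in ve-1 iron-free cultures and at least 545-fold higher than in wild-type standard ones, while its neighbour mig-4 was read in every library. NCU07609 had 431 and 106 reads in ve-1 standard libraries, against 0 and 5 in ve-1 iron-free, 0 and 0 in wild-type iron-free and 0 and 0 in wild-type standard ones. NCU07610 had 10947 and 6944 normalised counts in ve-1 standard libraries, against 28.4 and 66.7 in ve-1 iron-free, 19.7 and 27.3 in wild-type iron-free and 14.2 and 12.4 in wild-type standard ones. NCU07610 held 12.4 to 66.7 normalised counts outside ve-1 standard and NCU07609 none in 5 of the 6 libraries. NCU07928 had 7015 and 3101 normalised counts in ve-1 standard libraries, against 12.7 and 5.18 in ve-1 iron-free, 1.51 and 3.90 in wild-type iron-free and 10.6 and 0 in wild-type standard ones. NCU07927 had 1744 and 1207 normalised counts in ve-1 standard libraries, against 181 and 124 in ve-1 iron-free, 23.5 and 74.2 in wild-type iron-free and 299 and 88.1 in wild-type standard ones. The neighbours NCU02195 and NCU02196 were both near 0 outside ve-1 standard. NCU02195 had 657 and 144 reads in ve-1 standard libraries, against 0 and 5 in ve-1 iron-free, 1 and 6 in wild-type iron-free and 1 and 1 in wild-type standard ones, and it overlaps another annotated gene. NCU02196 had 2464 and 762 reads in ve-1 standard libraries, against 1 and 8 in ve-1 iron-free, 0 and 4 in wild-type iron-free and 9 and 2 in wild-type standard ones. Both had several times more reads in ve-1 standard replicate 1 than in replicate 2.

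NCU10016 had 7924 and 4106 normalised counts in ve-1 standard libraries, against 2.94 and 1.29 in ve-1 iron-free, 4.54 and 0.976 in wild-type iron-free and 2.36 and 1.24 in wild-type standard ones. It stands with a second such gene, NCU10015, on either side of NCU15835, which overlaps both and had between 1013 and 1883 normalised counts in all 8 libraries. Its ratio was 0.862, and how reads in the overlap were assigned is not given in the sources used here. Other pairs were read in all groups. NCU05143 had 39130.1 and 28253 normalised counts in ve-1 standard libraries, against 3726 and 2232 in ve-1 iron-free, 385 and 1694 in wild-type iron-free and 6032 and 1459.7 in wild-type standard ones. NCU05142 had 817 and 545 normalised counts in ve-1 standard libraries, against 66.7 and 49.2 in ve-1 iron-free, 12.1 and 13.7 in wild-type iron-free and 115 and 33.5 in wild-type standard ones. The group mean of both neighbours was lowest in wild-type iron-free cultures, where NCU05142 held 12.1 and 13.7 normalised counts. NCU17244 had 2929 and 1588 normalised counts in ve-1 standard libraries, against 279 and 294 in ve-1 iron-free, 14.4 and 28.3 in wild-type iron-free and 340.4 and 45.9 in wild-type standard ones. NCU02329 had 5588 and 4457 normalised counts in ve-1 standard libraries, against 706 and 638 in ve-1 iron-free, 41.6 and 86.9 in wild-type iron-free and 871 and 119 in wild-type standard ones. In both of these neighbours the 2 wild-type iron-free libraries were the lowest of the 8, and both genes return with the tested contrasts. NCU00250 had 2016 and 1449 normalised counts in ve-1 standard libraries, against 748 and 16.8 in ve-1 iron-free, 55.3 and 35.1 in wild-type iron-free and 625 and 192 in wild-type standard ones. NCU00251 had 3236 and 2244 normalised counts in ve-1 standard libraries, against 359.9 and 338 in ve-1 iron-free, 195 and 263 in wild-type iron-free and 667 and 154 in wild-type standard ones. NCU00250 and NCU00251 overlap each other, and the ve-1 iron-free cultures were far apart for NCU00250.

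Further pairs were separated by a single gene that was not among the 152, so these are neighbours only at 1 remove. NCU10015 had 6973 and 3712 normalised counts in ve-1 standard libraries, against 250.0 and 232 in ve-1 iron-free, 245 and 278 in wild-type iron-free and 188 and 199.7 in wild-type standard ones. NCU01055 had 883 and 445 normalised counts in ve-1 standard libraries, against 13.7 and 21.4 in ve-1 iron-free, 20.4 and 17.6 in wild-type iron-free and 30.7 and 31.0 in wild-type standard ones, and it overlaps another gene. NCU01057 had 6203 and 3047 normalised counts in ve-1 standard libraries, against 10.8 and 1.29 in ve-1 iron-free, 19.7 and 16.6 in wild-type iron-free and 35.5 and 37.2 in wild-type standard ones. NCU01055 and NCU01057 stayed at or under 37.2 normalised counts in the other 6 libraries, while NCU01056 between them had a ratio of 0.0758. NCU09831 had 907 and 308 normalised counts in ve-1 standard libraries, against 1.96 and 0.647 in ve-1 iron-free, 0 and 2.93 in wild-type iron-free and 42.6 and 3.72 in wild-type standard ones. NCU06080 had 1343 and 978 normalised counts in ve-1 standard libraries, against 80.4 and 87.4 in ve-1 iron-free, 8.33 and 53.7 in wild-type iron-free and 87.5 and 12.4 in wild-type standard ones. NCU09831 lies at 1 remove from mig-12 and NCU06080 from NCU06078, which are described below. NCU04725 had 622 and 346 normalised counts in ve-1 standard libraries, against 106 and 13.6 in ve-1 iron-free, 21.2 and 25.4 in wild-type iron-free and 134 and 60.8 in wild-type standard ones. NCU04727 had 1836 and 1253 normalised counts in ve-1 standard libraries, against 169 and 16.8 in ve-1 iron-free, 18.9 and 10.7 in wild-type iron-free and 428 and 123 in wild-type standard ones, and it overlaps another gene. In this last pair wild-type standard replicate 1 was the next highest library, and NCU04726 between them had a ratio of 1.07.

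The reference table gave a symbol to 13 of the 152 genes and none to the other 139. Counts are not divided by gene length, so they do not rank transcripts of different genes against each other. Products of the cell wall were named by 3 symbols. acw-6 (NCU03530) had 36070.5 and 43543 normalised counts in ve-1 standard libraries, against 13203 and 1794 in ve-1 iron-free, 1449.6 and 1365 in wild-type iron-free and 11346 and 4602 in wild-type standard ones, and the gene encodes an anchored cell wall protein. ncw-4 (NCU02948) had 21097 and 19999.6 normalised counts in ve-1 standard libraries, against 3599 and 1739 in ve-1 iron-free, 2736 and 4014 in wild-type iron-free and 5311 and 2733 in wild-type standard ones, and it encodes a non-anchored cell wall protein. ncw-6 (NCU00586) had 13969 and 12199 normalised counts in ve-1 standard libraries, against 1998 and 515 in ve-1 iron-free, 294 and 1463 in wild-type iron-free and 3388 and 1134 in wild-type standard ones, and it too encodes a non-anchored cell wall protein. For these genes both ve-1 standard libraries were above the rest, and the next highest library was ve-1 iron-free replicate 1 for acw-6 and wild-type standard replicate 1 for ncw-4 and ncw-6.

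The opsin gene nop-1 and the repair gene mus-18 are linked to light and ultraviolet damage in Neurospora, nop-1 as a retinal-binding opsin and mus-18 as an endonuclease that cuts at ultraviolet damage. nop-1 (NCU10055) had 5905 and 3237 normalised counts in ve-1 standard libraries, against 950.2 and 338 in ve-1 iron-free, 235 and 179 in wild-type iron-free and 898 and 537 in wild-type standard ones. mus-18 (NCU08850) had 4339 and 3631 normalised counts in ve-1 standard libraries, against 278 and 155 in ve-1 iron-free, 149 and 834 in wild-type iron-free and 878 and 594 in wild-type standard ones. For nop-1 the wild-type iron-free cultures were the lowest of the 4 groups, and for mus-18 they were far apart, at 149 and 834. The enzyme genes were tre-1, for trehalase, which splits the storage sugar trehalose, and pks-3, for a polyketide synthase. tre-1 (NCU00943) had 3991 and 2075 normalised counts in ve-1 standard libraries, against 881 and 319 in ve-1 iron-free, 22.7 and 12.7 in wild-type iron-free and 632 and 160.0 in wild-type standard ones. pks-3 (NCU04865) had 3652 and 2099.7 normalised counts in ve-1 standard libraries, against 426 and 601 in ve-1 iron-free, 139 and 164 in wild-type iron-free and 618 and 252 in wild-type standard ones. Both enzymes had their lowest 2 values in wild-type iron-free cultures, and tre-1 overlaps another annotated gene. stk-29 (NCU04326) had 1850.2 and 1452 normalised counts in ve-1 standard libraries, against 399 and 256 in ve-1 iron-free, 272 and 181 in wild-type iron-free and 436 and 169 in wild-type standard ones, and the symbol stands for a serine-threonine protein kinase.

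No role is stated here for mip-1 and for the genes with mig symbols. mip-1 (NCU00276) had 1889.5 and 1879.9 normalised counts in ve-1 standard libraries, against 354 and 369.6 in ve-1 iron-free, 148 and 299 in wild-type iron-free and 329.8 and 144 in wild-type standard ones. mig-2 (NCU07452) had 1482 and 1465 normalised counts in ve-1 standard libraries, against 127 and 122 in ve-1 iron-free, 15.1 and 189 in wild-type iron-free and 105 and 28.5 in wild-type standard ones, and the gene overlaps another one. mig-12 (NCU09830) had 4650.3 and 10583 normalised counts in ve-1 standard libraries, against 161 and 290.0 in ve-1 iron-free, 179 and 1647 in wild-type iron-free and 449 and 2102 in wild-type standard ones. The replicates of mip-1 and mig-2 in ve-1 standard cultures were close, whereas mig-12 was higher in replicate 2. The fourth mig gene, mig-4, was given above beside NCU09039.

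Among the 10 genes with the most normalised counts in ve-1 standard libraries, 5 have no symbol and have not been described yet. NCU09049 had 42157 and 28722 normalised counts in ve-1 standard libraries, against 3307 and 544 in ve-1 iron-free, 188 and 822 in wild-type iron-free and 8070.3 and 6202 in wild-type standard ones. NCU04667 had 20310.0 and 10310.1 normalised counts in ve-1 standard libraries, against 984 and 412 in ve-1 iron-free, 942 and 1511 in wild-type iron-free and 4650.4 and 2569 in wild-type standard ones. NCU08364 had 18586 and 7626 normalised counts in ve-1 standard libraries, against 811 and 397 in ve-1 iron-free, 291 and 241 in wild-type iron-free and 207 and 221 in wild-type standard ones. NCU08364 lay between 207 and 811 in the other 6 libraries, highest in ve-1 iron-free replicate 1, while NCU09049 and NCU04667 were next highest in wild-type standard cultures. NCU08770 had 4417 and 18353 normalised counts in ve-1 standard libraries, against 37.3 and 50.5 in ve-1 iron-free, 6.81 and 108 in wild-type iron-free and 273 and 277 in wild-type standard ones. NCU07345 had 11445 and 9259 normalised counts in ve-1 standard libraries, against 1223 and 741 in ve-1 iron-free, 134 and 149 in wild-type iron-free and 2558 and 489.9 in wild-type standard ones. NCU08770 was higher in ve-1 standard replicate 2, against the trend of most of the genes. One gene of the largest ratios also stood alone in the gene order. NCU01095 had 4422 and 1317 normalised counts in ve-1 standard libraries, against 9.81 and 0.647 in ve-1 iron-free, 3.78 and 1.95 in wild-type iron-free and 8.27 and 1.24 in wild-type standard ones. NCU01095 was under 10 normalised counts in all 6 other libraries. NCU04398 had 198 and 118 normalised counts in ve-1 standard libraries, against 3.92 and 1.29 in ve-1 iron-free, 0 and 0 in wild-type iron-free and 5.91 and 0 in wild-type standard ones. This was the other gene outside the stretches that stayed at or under 10 normalised counts in each of the 6 libraries. Beyond the genes given by library here and with the tested contrasts, 71 genes had a median ratio of 6.03 and a range of 4.05 to 32.7. The median of their group means was 638 (range 112 to 6407) normalised counts in ve-1 standard libraries, against 71.4 (range 0.814 to 1009.9) in ve-1 iron-free, 36.2 (range 0 to 873) in wild-type iron-free and 82.1 (range 6.5 to 1425) in wild-type standard ones. The next highest group was wild-type standard for 45 of them, ve-1 iron-free for 23 and wild-type iron-free for 3, and replicate 1 of ve-1 standard was above replicate 2 for 51.

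The 2 ve-1 standard cultures did not carry the genes at the same level. Replicate 1 was above replicate 2 for 125 of the 152 genes and below it for 27, with a median ratio of 1.45 and a range of 0.241 to 35.0. Over the 6131 genes with at least 100 in ve-1 standard the same median was 1.00, and 50.5% were above 1. In ve-1 iron-free cultures too, replicate 1 was above replicate 2 for 109 of the 152, against 47.5% of all genes with reads. The number was 113 in wild-type standard cultures, against 47.4%, and 51 in wild-type iron-free ones, against 47.6%. In ve-1 standard cultures the ratio was at least 5 for 9 of the 152 genes, and for 18 of the 6131 (0.294%), which include those 9. Outside the 152 and the loci left out by the rule, it was at least 5 for 7 genes. The rule used the mean of these same 2 libraries and can take a gene through 1 high library. It thus favours wide ratios among the 152, and these shares are a description without a test. Of the 9 among the 152, 8 lay in the stretch from NCU05761 to NCU05767. The ninth was pre-2, which encodes a pheromone receptor. pre-2 (NCU05758) had 637 and 18.2 normalised counts in ve-1 standard libraries, against 7.84 and 6.47 in ve-1 iron-free, 13.6 and 8.78 in wild-type iron-free and 8.27 and 23.6 in wild-type standard ones. Its value in ve-1 standard replicate 2 was below that of wild-type standard replicate 2, so pre-2 met the rule through 1 library. Genes of the longest stretch also reached the level of 100 only through replicate 1. Among them, NCU05761 had 70.3 normalised counts in ve-1 standard replicate 2 and NCU17268 had 27.3. Replicates 1 and 2 were different strains, and the mating-type gene matA-1 had 0 and 403 reads in ve-1 standard libraries, against 1 and 5 in ve-1 iron-free, 74 and 0 in wild-type iron-free and 118 and 0 in wild-type standard ones. The part of mating type in the split of pre-2 and of the other genes was not tested.

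**Figure D3:**
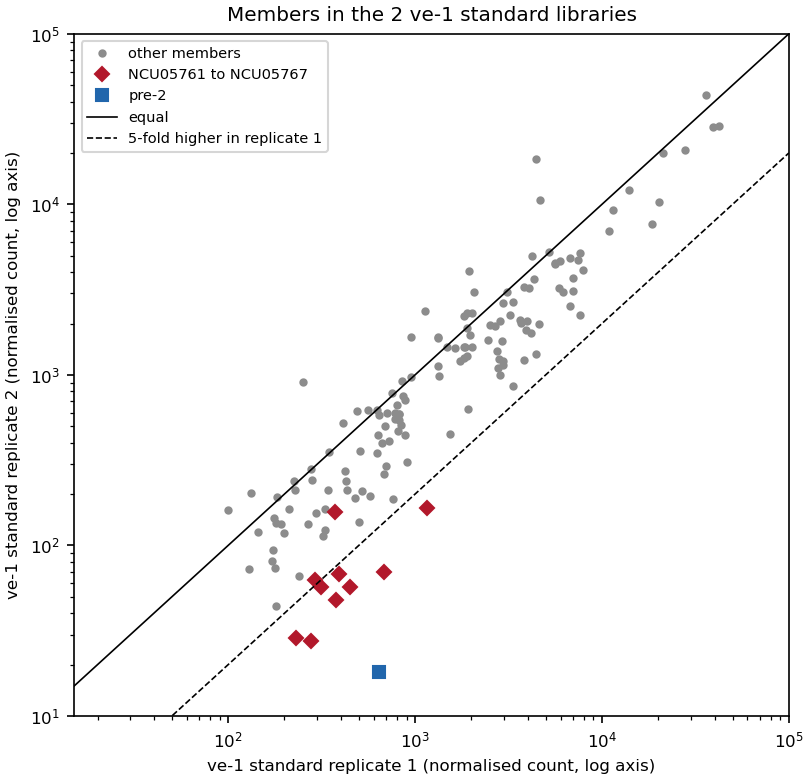
Normalised counts of the 152 genes in ve-1 standard replicate 1 (horizontal) and replicate 2 (vertical), both on log axes, with a solid line of equal values and a dashed line where replicate 1 is 5-fold higher. The 125 genes higher in replicate 1 lie below the solid line, and pre-2 and 8 genes of the stretch from NCU05761 lie below the dashed one.

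Markers of other tissue were summed per library beside these values. All 6 conidial markers were found (con-6, con-8, con-10, con-13, eas and ccg-13), and none was at 0 in all libraries, though con-13 was at 0 in replicate 2 of both iron-free groups. Their summed level was 879389 and 986197 normalised counts in ve-1 standard libraries, against 445758 and 31828 in ve-1 iron-free, 39363 and 65486 in wild-type iron-free and 583726 and 247508 in wild-type standard ones. Most of it came from eas, the hydrophobin of conidial surfaces, with 762785 and 837162 normalised counts in ve-1 standard libraries, against 430164 and 20017 in ve-1 iron-free, 10518 and 8966 in wild-type iron-free and 439747 and 76601 in wild-type standard ones. The markers did not all go the same way, since ccg-13 had 14194 and 9298 in ve-1 standard libraries, against 2707 and 6863 in ve-1 iron-free, 15447 and 10436 in wild-type iron-free and 105605 and 119203 in wild-type standard ones. Conidial marker sums, led by eas, were thus highest in ve-1 standard cultures, and their part in the levels of the 152 genes was not tested. The 8 sexual tissue markers (poi-2, asd-1, asd-3, asd-4, per-1, fmf-1, ccg-4 and mfa-1) summed to 22786 and 2229.8 in ve-1 standard libraries, against 967 and 526 in ve-1 iron-free, 4234 and 3239 in wild-type iron-free and 2487 and 2473 in wild-type standard ones. That sum was highest in ve-1 standard replicate 1, where the longest stretch and pre-2 were also higher, and its part in them was not tested. Without the loci that the rule leaves out, the other 6 markers summed to 491 and 1570.2 in ve-1 standard libraries, against 392 and 408 in ve-1 iron-free, 4047 and 3117 in wild-type iron-free and 2399 and 2314 in wild-type standard ones, so the high value in replicate 1 came from the loci left out. Among the 6, asd-1 had 138 and 100.2 in ve-1 standard libraries, against 177 and 216 in ve-1 iron-free, 3827 and 2961 in wild-type iron-free and 820.4 and 2069 in wild-type standard ones, and ccg-4 was at 0 in ve-1 standard replicate 1 and at 1133 in replicate 2. None of the conidial and sexual markers is among the 152 genes, because the 2 in each list that met the thresholds were left out by the rule. The 6 conidiophore development genes (fl, fld, acon-2, acon-3, csp-1 and csp-2) summed to 11546 and 12039 in ve-1 standard libraries, against 8235 and 2884 in ve-1 iron-free, 2732 and 12588 in wild-type iron-free and 6878 and 8224 in wild-type standard ones, so the ve-1 standard range overlapped that of wild-type iron-free cultures.

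The rule set a ceiling on the 152 genes in each of the other 3 groups but did not use the order of these groups. It thus left 2 contrasts among them that could be tested, though not free of the choice of genes. The first asked whether loss of ve-1 also raised the genes without iron, and the second whether absence of iron lowered them in wild type. Both used edgeR's quasi-likelihood test on 8118 genes, fitted to all 8 libraries and adjusted by Benjamini-Hochberg over all genes tested, with calls at an adjusted p under 0.05. The spread of each gene was thus estimated in part from the ve-1 standard libraries that chose the 152. All 152 genes were tested, but 30 of them passed the filter on low counts only through the ve-1 standard libraries that chose them, and 122 pass it in the 6 other libraries. The 30 had few reads in the groups compared, and counts are therefore also given for the fit to the 8000 genes that pass in the 6 other libraries, a setting chosen after seeing the data. The contrasts share the wild-type iron-free libraries, so that a low value there moves both.

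In iron-free medium, 19 of the 152 genes (12.5%) rose in ve-1 relative to wild type, against 8.36% of all genes tested, and 1 (0.658%) fell, against 10.1%. With both directions the count was 20 (13.2%), against 18.5% of all genes. Among the 122 genes that pass in the 6 other libraries, 19 rose (15.6%, against 8.60% of the 8000) and 1 fell (0.82%, against 10.4%), and none of the 30 was called. DESeq2 called 36 of the 152 higher (23.7%, against 10.5% of all genes it tested) and 2 lower (1.32%, against 13.2%). The DESeq2 counts include the 30 and were not repeated over the 122, so no excess is read from them. The median log2 difference was 0.66 over the 152 genes and 0.04 over all genes, with 102 of the 152 above 0 and 49 below, and it was 0.93 over the 122. Both ve-1 iron-free libraries lay above both wild-type iron-free ones for 62 genes (40.8%, against 30.0% of all genes) and below them for 12 (7.89%, against 30.9%). These 2 counts also include the 30 and were not repeated over the 122. The largest log2 difference among the called genes was that of tre-1, with 881 and 319 normalised counts in ve-1 iron-free libraries, against 22.7 and 12.7 in wild-type iron-free ones, at 5.07 (SE 0.88, adjusted p = 0.0122). NCU09685 had 708 and 596 normalised counts in ve-1 standard libraries, against 171 and 111 in ve-1 iron-free, 8.33 and 2.93 in wild-type iron-free and 179.7 and 76.9 in wild-type standard ones. NCU09685 rose by a log2 difference of 4.58 (SE 0.59, adjusted p = 0.00617), and it was the single one of the 20 calls named for the 2 contrasts that held in all 8 fits that leave out 1 library. NCU09597 had 254 and 119 reads in ve-1 standard libraries, against 35 and 63 in ve-1 iron-free, 2 and 2 in wild-type iron-free and 16 and 2 in wild-type standard ones. NCU05510 had 858 and 753 normalised counts in ve-1 standard libraries, against 140.2 and 18.8 in ve-1 iron-free, 3.03 and 5.86 in wild-type iron-free and 98.1 and 22.3 in wild-type standard ones. NCU09597, with few reads, rose by 4.40 (SE 0.88, adjusted p = 0.018) on the log2 scale. NCU05510, which overlaps another gene, rose by 4.15 (SE 1.18, adjusted p = 0.0494). The neighbours NCU17244 and NCU02329 rose by log2 differences of 3.79 (SE 0.90, adjusted p = 0.0297) and 3.42 (SE 0.86, adjusted p = 0.0353). Both were thus higher without iron in ve-1 than in wild type, and neither ve-1 library overlapped a wild-type one.

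NCU08154 had 286 and 126 reads in ve-1 standard libraries, against 15 and 29 in ve-1 iron-free, 4 and 1 in wild-type iron-free and 22 and 14 in wild-type standard ones. NCU02849 had 883 and 712 normalised counts in ve-1 standard libraries, against 125 and 190.3 in ve-1 iron-free, 18.2 and 23.4 in wild-type iron-free and 141 and 43.4 in wild-type standard ones. NCU03254 had 2504 and 1969.7 normalised counts in ve-1 standard libraries, against 669.7 and 374 in ve-1 iron-free, 53.0 and 91.7 in wild-type iron-free and 596 and 136 in wild-type standard ones. Each of these rose in ve-1 without iron, with ranges that did not overlap those of wild type without iron. The log2 difference was 2.97 (SE 0.66, adjusted p = 0.0241) for NCU08154, 2.96 (SE 0.56, adjusted p = 0.016) for NCU02849 and 2.88 (SE 0.69, adjusted p = 0.0305) for NCU03254. NCU06078 had 111 and 56 reads in ve-1 standard libraries, against 12 and 22 in ve-1 iron-free, 1 and 3 in wild-type iron-free and 7 and 2 in wild-type standard ones, and its log2 difference was 2.86 (SE 0.80, adjusted p = 0.0464). The polyketide synthase gene pks-3 rose by 1.80 (SE 0.48, adjusted p = 0.041). Another 8 genes rose by log2 differences of 1.21 to 2.82. The 1 gene that fell was NCU05887 of the 6-gene stretch, with 3.92 and 3.24 normalised counts in ve-1 iron-free libraries, against 16.7 and 25.4 in wild-type iron-free ones, at -2.49 (SE 0.64, adjusted p = 0.0361). Single libraries weighed on this count: it fell when any wild-type iron-free, ve-1 iron-free or ve-1 standard library was dropped. The number of all genes called higher fell in the same fits, so the fall was not particular to the 152. The median log2 difference of the 152 genes was 0.22 without ve-1 iron-free replicate 1 and 1.31 without wild-type iron-free replicate 2. The conidial marker sums given above overlapped between these groups, with ve-1 iron-free replicate 1 far above the other 3 libraries, and their part in the calls was not tested.

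In wild type, 8 of the 152 genes (5.26%) fell without iron relative to standard medium, against 5.10% of all genes tested, and none rose, against 1.47% of all genes. In either direction 5.26% of the 152 genes and 6.57% of all genes were called. Among the 122 genes that pass in the 6 other libraries, 9 fell (7.38%, against 5.31% of the 8000) and none rose (against 1.57%). At an unadjusted p under 0.05 edgeR gave 0 of the 152 higher and 54 lower. The share of all genes at that unadjusted threshold is not at hand, so no excess is read from these counts. DESeq2 called 41 of the 152 lower (27.0%, against 9.98% of all genes it tested) and 0 higher (against 4.74%). By edgeR the share that fell was thus near that of all genes. The higher DESeq2 share includes the 30 genes that passed edgeR's filter only through ve-1 standard libraries. It was not repeated over the 122, so no excess is read from it. The median log2 difference was -1.28 over the 152 genes and 0.03 over all genes, with 119 of the 152 below 0 and 31 above, and it was -1.38 over the 122. Both wild-type iron-free libraries lay below both wild-type standard ones for 70 genes (46.1%, against 27.7% of all genes) and above them for 9 (5.92%, against 30.0%). These counts too include the 30 and were not repeated over the 122. Most of the genes thus had a negative difference in wild type without iron, but edgeR called 8 of them, and wild-type standard replicate 1 was above replicate 2 for 113 of the 152, against 47.4% of all genes with reads. With the replicate number as a block within each genotype, 10 of the 152 genes fell, and over all genes 71 rose and 255 fell, against 119 and 414 without the block.

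The trehalase gene tre-1 and NCU09685, which rose in ve-1 without iron, were also the genes with the largest called falls in wild type. Trehalase transcripts numbered 22.7 and 12.7 normalised counts in wild-type iron-free libraries, against 632 and 160.0 in wild-type standard ones, a log2 difference of -4.49 (SE 0.86, adjusted p = 0.0308). NCU09685 held 8.33 and 2.93 normalised counts in wild-type iron-free libraries, against 179.7 and 76.9 in wild-type standard ones, at -4.46 (SE 0.59, adjusted p = 0.0147). For both, the 2 wild-type iron-free libraries were the lowest of the 8. NCU01064 had 5584 and 4501 normalised counts in ve-1 standard libraries, against 331 and 106 in ve-1 iron-free, 26.5 and 51.7 in wild-type iron-free and 1188 and 275 in wild-type standard ones. NCU16352 had 175 and 144 normalised counts in ve-1 standard libraries, against 6.86 and 6.47 in ve-1 iron-free, 2.27 and 1.95 in wild-type iron-free and 53.2 and 9.92 in wild-type standard ones. NCU01064, which overlaps another gene, fell, with a log2 difference of -4.26 (SE 0.86, adjusted p = 0.0349), and so did NCU16352, at -3.85 (SE 0.86, adjusted p = 0.0437). NCU09420 had 4068 and 3235 normalised counts in ve-1 standard libraries, against 883 and 263 in ve-1 iron-free, 129 and 79.1 in wild-type iron-free and 791 and 606 in wild-type standard ones. NCU05084 had 948 and 969 normalised counts in ve-1 standard libraries, against 198 and 93.2 in ve-1 iron-free, 18.9 and 29.3 in wild-type iron-free and 178 and 117 in wild-type standard ones. NCU09420, which overlaps another gene, fell, at -2.78 (SE 0.56, adjusted p = 0.035), and so did NCU05084, at -2.65 (SE 0.44, adjusted p = 0.022), and these too had their lowest values in wild type without iron. The remaining calls were NCU07345, at -3.46 (SE 0.73, adjusted p = 0.0376), and NCU08154, at -3.33 (SE 0.67, adjusted p = 0.0337). NCU16352 is the 1 called gene among the 30 that passed the filter only through ve-1 standard libraries. With the block within each genotype, 5 of the 8 calls were kept, and NCU01064, NCU07345 and NCU08154 missed the threshold. NCU04169 had the log2 difference -9.50 (SE 2.23, adjusted p = 0.0508) and was not called; it was chosen after its values were seen. Here too the count turned on single libraries: it was 0 when wild-type iron-free replicate 2 was dropped, 1 when replicate 1 of either wild-type group was dropped, and 2 and 3 when ve-1 standard replicate 1 or replicate 2 was. The count rose when either of the ve-1 iron-free cultures was dropped, as did the number over all genes. It also rose without wild-type standard replicate 2, where the number over all genes fell. The median log2 difference of the 152 genes was -0.49 without wild-type standard replicate 1. The conidial marker sum moved the same way, at 39363 and 65486 in wild-type iron-free libraries, against 583726 and 247508 in wild-type standard ones, and its part in these differences was not tested. Total-count scaling shifted the median of all genes by 0.52 and upper-quartile scaling by 0.11, and relative to the shifted median the 152 genes stayed lower, with 16 and 8 that fell. Over all genes, total-count scaling called 1003 higher and 287 lower and upper-quartile scaling 170 higher and 350 lower.

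**Figure D4:**
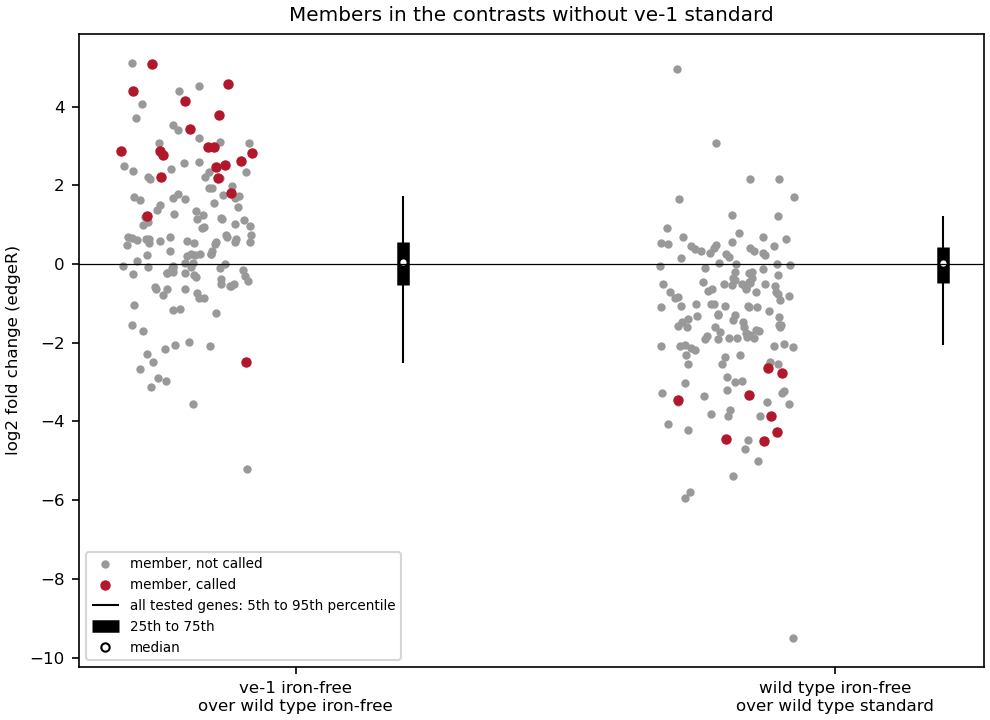
Log2 fold changes from edgeR (vertical) in the 2 tested contrasts, with 1 point for each of the 152 genes, red where called, spread sideways for sight, beside the median, quartiles and 5th to 95th percentiles of all 8118 tested genes. The points have a median of 0.66 on the left, against 0.04 over all genes, and of -1.28 on the right, against 0.03.

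The authors' deposited tables, which list genes with an adjusted p under 0.05, were read for the same genes. The authors' deposited table of ve-1 over wild type in standard medium lists 147 of the 152 genes (96.7%, against 22.6% of all genes), all higher. That of iron-free over standard medium in ve-1 lists 144 (94.7%, against 18.9% of all genes), all lower. Both of those contrasts hold the ve-1 standard libraries, so the rule set their direction and these counts lend no support. The authors' deposited table of ve-1 over wild type without iron lists 36 of the genes (23.7%, against 15.9% of all genes), 34 higher and 2 lower. Over all genes it lists 641 higher and 907 lower. The authors' deposited table of iron-free over standard medium in wild type lists 40 (26.3%, against 10.3% of all genes), all lower. Over all genes it lists 250 higher and 754 lower. These tables come from the same cultures as the contrasts tested here and are no independent evidence.

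Few of the genes belong to pathways named by symbol. Of all genes tested, 8.36% rose and 10.1% fell in ve-1 against wild type without iron (median log2 difference 0.04). In wild type without iron against standard medium, 1.47% rose and 5.10% fell (median 0.03). Of 27 cell wall genes tested, acw-6, ncw-4 and ncw-6 are among the 152; in ve-1 against wild type without iron 2 of the 27 rose and 4 fell (median log2 difference -0.29), and in wild type without iron against standard medium 1 rose and 6 fell (median -0.70). Of 17 sexual development genes pre-2 is one, and none rose and 3 fell in the ve-1 contrast (median -0.64), while none was called in the wild-type contrast (median -0.38). Of 5 polyketide and peptide synthase genes pks-3 is one, and 1 rose and 2 fell in the ve-1 contrast (median -0.79), while none was called in the wild-type contrast (median 0.79). Of 12 light and clock genes nop-1 is one, and none was called in either contrast (medians -0.38 and 0.20).

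The threshold of 4-fold cut through a continuum of ratios. Just inside it stood NCU01734 at 4.05, NCU06506 at 4.06, NCU16947 at 4.12 and NCU16442 at 4.23. Just outside it stood NCU02321 at 3.98, NCU09859 at 3.96, cys-2 (NCU04077) at 3.96 and NCU00678 at 3.94. NCU06078, with a mean of 101 normalised counts in ve-1 standard libraries, was just above the level threshold, and NCU17202, with 97.5 and a ratio of 35.5, was just below it.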

How the data were processed

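PolyA RNA of 8 cultures was sequenced from stranded libraries, per the labels' protocols. The authors deposited whole-number read counts for 9730 genes per library, and the submitters' processing notes name FastQC, Trim Galore, STAR and DESeq2. No version, genome build, counting tool or strand setting is named in these sources, so reads of overlapping genes may be shared. The authors also deposited tables with log2 fold changes, adjusted p-values and group means, a signal of normalised counts.

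Genes were matched by locus tag to the NC12 RefSeq table (9729 of 9730), used for symbols and gene order. Counts were divided by median-of-ratios size factors. The rule left out 7 loci that met its thresholds. Of these, 4 enter the marker sums, and the 7 were not taken out of the counts over all genes. The genes and gene lists were chosen with earlier results of these data known. The 2 tested contrasts used edgeR 4.0.16 (quasi-likelihood, TMM, robust, two-sided, R 4.3.3) on all 8 libraries as 4 groups with 4 residual degrees of freedom, and genes passed a count minimum of 10 and a total of 15. DESeq2 1.42.0, other scalings, no filter, a filter on the 6 libraries outside ve-1 standard, non-robust dispersions, a replicate block, the 4 libraries compared and leaving out each library were alternatives. Named genes were the 10 with the most counts, the 10 with the largest ratios, those with a symbol, those beside another one and up to 10 called per direction. Pairing within a genotype comes from strain codes in the deposited files, which give replicates of 1 number the same strain in both media, although deviations of same-numbered replicates correlated at -0.0024 in ve-1 and 0.056 in wild type. Cultures are labelled as separate, and 2 per group limit the precision of each p-value. Totals of 6654585 to 10192729 counts set the depth, and Wilson intervals (95%) and the floor of 3 counts cover counting error only.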

Additional observations from a re-analysis of the deposited data

How the results depend on the processing

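No named call changed direction under any alternative that was run. The rule took 152 genes, and 151 with TMM scaling, 158 with total-count scaling (137 shared), 152 with the level set on the mean before 1 was added, 225 at 3-fold, 69 at 8-fold, 77 when both ve-1 standard libraries had to be 4-fold over the highest other library, and 123 to 184 without 1 library.

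In ve-1 against wild type without iron, 19 of the genes rose and 1 fell, of all genes 679 and 821. DESeq2 gave 36 and 2 of the genes. The fit to the 4 libraries compared gave 18 and 0 of the genes and 350 higher among all genes. Leaving out 1 library gave 2 to 26 higher and 0 to 2 lower among the genes, and 149 to 674 higher and 302 to 814 lower among all genes. In wild type without iron against standard medium, 0 of the genes rose and 8 fell, of all genes 119 and 414. Total-count scaling gave 16 lower among the genes and 1003 higher among all genes. DESeq2 gave 41 lower among the genes, and 397 higher and 836 lower among all genes. The fit to the 4 libraries compared gave 2 lower among the genes, and 7 higher and 118 lower among all genes. Leaving out 1 library gave 0 higher and 0 to 32 lower among the genes, and 1 to 145 higher and 6 to 500 lower among all genes. The cause of these differences was not tested.

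With the replicate number as a block within each genotype, the wild-type contrast gave 71 higher and 255 lower among all genes. As a block over all 8 libraries, the replicate number is shared between genotypes without a pairing. That block gave 22 higher and 2 lower among the genes in the ve-1 contrast, and 563 and 740 among all genes. In the wild-type contrast it gave 0 higher and 15 lower among the genes, and 130 and 405 among all genes. Replicate differences of wild-type standard and ve-1 standard cultures correlated at 0.056. The small number of reads limits genes near 0 outside ve-1 standard cultures, whose log2 differences depend on 1 or a few reads.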
